A study of Homo sapiens with 9 samples.

Results

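The transcripts of 9 enzymes that run the pentose phosphate pathway or supply NADPH were followed in MDA-MB-231 cells that had survived a ferroptosis inducer. The members were taken by gene symbol from the gene tables: PGLS, PGD, TALDO1, TKT, RPIA, ME1, IDH1, NNT and NADK. They are 9 of the 58735 genes listed and 9 of the 16188 genes that passed the filter on low counts, so that none was lost to the filter. MDA-MB-231 is an established line of triple-negative breast cancer. The study compared 3 groups of 3 libraries each: cells treated with DMSO (vehicle), cells that survived rising amounts of erastin (erastin-R) and cells that survived rising amounts of RSL3 (RSL3-R). The labels give no concentration, duration or genetic change, and they do not say whether the replicates were separate cultures, so that the p values measure the spread between these libraries only. All libraries are of bulk, poly(A)-selected RNA from a population, in which a lower level in every cell and fewer cells with a high level cannot be told apart.

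The oxidative branch of the pentose phosphate pathway turns glucose 6-phosphate into ribulose 5-phosphate and reduces NADP to NADPH on the way. The non-oxidative branch links these pentoses back to the sugar phosphates of glycolysis and to ribose for nucleotides. NADPH also comes from cytosolic malic enzyme and isocitrate dehydrogenase and, in mitochondria, from a transhydrogenase. NAD kinases make the NADP that these enzymes use, and NADK is the cytosolic one. The cell spends NADPH on glutathione and thioredoxin reduction and on lipid synthesis. Erastin blocks the cystine carrier that feeds glutathione synthesis, and RSL3 inhibits GPX4, the peroxidase that uses glutathione to detoxify lipid peroxides. Several of the genes, among them PGD, TALDO1, TKT and ME1, are known targets of the transcription factor NRF2.

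Total counts per library were 15405102 to 17273464, and the model over all genes estimated a coefficient of variation between replicates of 8.56%. Erastin-R replicate 1 lay farther from its group than any other library, with a root mean square difference of 0.419 in log2 CPM (counts scaled to library size) from the mean of the other erastin-R libraries, against 0.287 to 0.339 for the other 8 libraries. Some values that change with it are also given without it. Others, such as the changes of IDH1 and TALDO1 in erastin-R cells, are given with all libraries only. VIM and CD44, markers of the mesenchymal line, had means of 1347 to 1475 CPM and 234 to 314 CPM over the 3 groups, and EGFR had 390.5 to 672 CPM. ESR1 and PGR stayed at 12 counts or fewer in every library, EPCAM and CDH1 had means of 0.751 to 3.44 CPM, and ERBB2 had 62.0 to 93.3 CPM. Of the markers of other cells, KRT5 had 0 counts in all libraries. PTPRC had 3 to 11 counts in vehicle and erastin-R and 19 to 24 counts in RSL3-R libraries, and PECAM1 moved with the groups, from 9.99 ± 0.816 CPM (SD, n = 3) in vehicle cells to 1.79 ± 0.457 CPM in erastin-R and 12.8 ± 1.11 CPM in RSL3-R cells. The part of PECAM1, PTPRC and CDH1 (1.14, 0.751 and 3.44 CPM in the 3 groups) in the results was not tested.

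The 2 groups of survivors differed in what happened to these enzymes. In erastin-R cells 6 of the 9 transcripts rose against vehicle (TKT, ME1, TALDO1, NADK, PGLS and NNT) and IDH1 fell, at an adjusted p under 0.05 from edgeR's quasi-likelihood test. Of all genes tested, 27.1% were higher and 26.8% lower by the same criterion. In RSL3-R cells 3 rose (ME1, PGLS and IDH1), against 23.8% of all genes, and 1 fell (NNT), against 24.9%. That count of 1 was 4 (NNT, PGD, TALDO1 and RPIA) without erastin-R replicate 1, where 29.2% of genes were lower, and 4 when vehicle and RSL3-R were fitted alone, where 29.8% were lower. The median log2 fold change (log2FC) of the 9 was 0.49 after erastin and -0.02 after RSL3, and that of all genes tested was 0.00 and 0.01. These comparisons share the vehicle libraries, and SE stands for the standard error of a log2FC. Compared directly, RSL3-R cells had lower levels than erastin-R cells for 6 of the 9 (NNT, TALDO1, TKT, NADK, RPIA and PGD), where 26.9% of all genes were lower, and a higher level for IDH1 alone, where 22.3% were higher. No member reached an absolute log2FC of 1, the further criterion of the study, which 13.4% of genes passed in erastin-R cells, 10.1% in RSL3-R cells and 10.3% in the direct comparison. The changes were thus between 1.20-fold and 1.75-fold where the test against vehicle was passed.

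**Figure D1:**
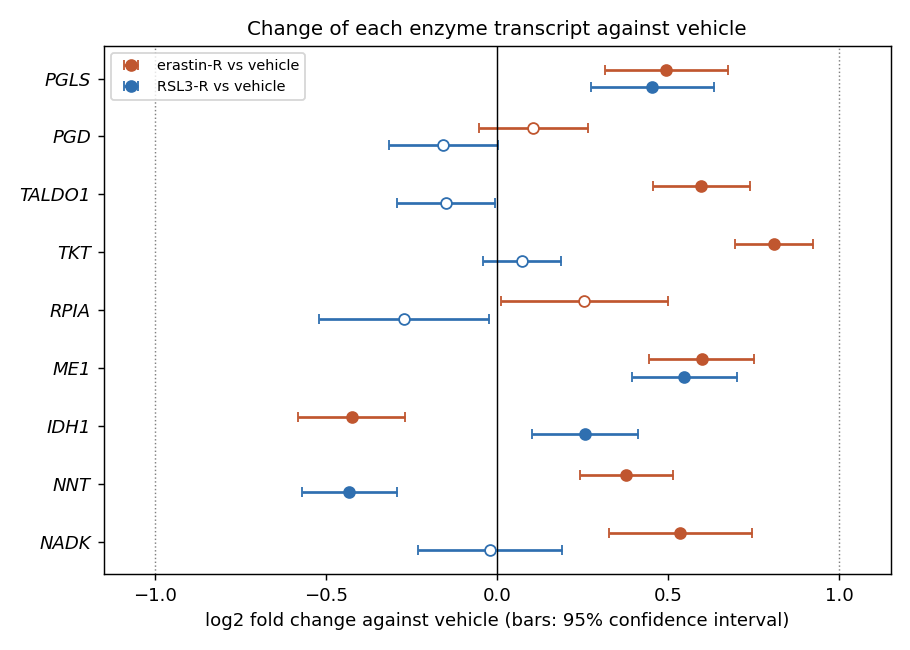
Log2FC against vehicle (x axis) for each of the 9 transcripts (y axis) in erastin-R and RSL3-R cells, with 95% confidence intervals from edgeR as bars, filled points for an adjusted p under 0.05 and dotted lines at -1 and 1. TKT lies farthest to the right in erastin-R cells at 0.81, and IDH1 and NNT lie on opposite sides of 0 in the 2 groups.

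Promoter sequence was examined because NRF2 acts through the antioxidant response element. RefSeq promoter windows (GRCh38.p14, 250 bases before to 50 bases after a transcript start) were matched for all 9 genes, in 13 windows. The core of the element, TGACNNNGC read on both strands, occurred in 3 of the 13 windows, those of PGD, IDH1 and ME1 (where a second match, TGACGGTGC on the other strand, lies after the start), and in 13.35% of all 35116 windows. The lines that follow give 120 bases around each match, with the matched letters in capitals. The PGD stretch is chr1:10398814-10398933 on the plus strand, with a match (TGACATTGC on the other strand, so that its reverse complement is in capitals) that begins 201 bases before the start. The IDH1 stretch is chr2:208255150-208255269 and the ME1 stretch is chr6:83431124-83431243, both on the minus strand, with matches that begin 143 and 137 bases before the start.
PGD: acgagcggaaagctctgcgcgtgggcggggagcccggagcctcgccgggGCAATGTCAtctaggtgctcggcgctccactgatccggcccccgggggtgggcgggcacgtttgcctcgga
IDH1: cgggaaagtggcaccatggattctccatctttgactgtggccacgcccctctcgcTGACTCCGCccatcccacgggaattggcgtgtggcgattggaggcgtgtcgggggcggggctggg
ME1: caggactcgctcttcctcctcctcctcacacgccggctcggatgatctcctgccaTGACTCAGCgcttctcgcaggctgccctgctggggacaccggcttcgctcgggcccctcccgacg
The 3 genes that hold these letters behaved differently: ME1 rose in both groups of survivors, PGD passed the test against vehicle in neither when all 9 libraries were fitted, and IDH1 fell in erastin-R and rose in RSL3-R cells. The windows of TKT, TALDO1, NADK, PGLS, NNT and RPIA did not hold the core, and the first 5 of them rose in erastin-R cells. A second core (TGATGNAA, found where ATF4 and CHOP bind) was in none of the 13 windows and in 3.62% of all windows. These are matches of letters within short windows and not sites of binding, and the part of NRF2 in these changes was not tested.

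In the oxidative branch, PGLS rose in both groups of survivors, whereas PGD passed the test against vehicle in neither in the model of all 9 libraries. PGLS (ENSG00000130313; chromosome 19, 17511629 to 17521288, GRCh38), which hydrolyses 6-phosphogluconolactone, had 43.2, 42.7 and 35.8 CPM in vehicle, 52.4, 60.1 and 59.0 CPM in erastin-R and 56.0, 55.5 and 55.2 CPM in RSL3-R cells. All 6 libraries of survivors lay above the 3 vehicle libraries. The log2FC of PGLS was 0.49 in erastin-R cells (SE 0.08, adjusted p = 0.00021, edgeR) and 0.45 in RSL3-R cells (SE 0.08, adjusted p = 0.000496, edgeR). PGD (ENSG00000142657; chromosome 1, 10398592 to 10420144), which oxidises 6-phosphogluconate and yields NADPH, had 133, 139.5 and 136 CPM in vehicle cells and 166, 135 and 139 CPM in erastin-R cells. The erastin-R group overlapped the vehicle group, and only replicate 1 lay above it. Its level was 119.8, 127 and 120.2 CPM in RSL3-R cells, below all vehicle libraries. The log2FC of PGD was 0.11 in erastin-R cells (95% confidence interval -0.05 to 0.27, adjusted p = 0.243, edgeR) and 0.01 without erastin-R replicate 1. In RSL3-R cells it was -0.16 (95% confidence interval -0.32 to 0.00, adjusted p = 0.0954, edgeR), with an adjusted p from edgeR of 0.00703 when vehicle and RSL3-R were fitted alone and 0.00348 without erastin-R replicate 1. Between RSL3-R and erastin-R cells PGD differed by -0.26 (SE 0.07, adjusted p = 0.00939, edgeR), and by -0.17 without erastin-R replicate 1 (adjusted p = 0.0058, edgeR). This difference did not pass without RSL3-R replicate 1 or 3 (-0.21 in both, adjusted p = 0.0706 and 0.0714, edgeR) or with quantile normalization (-0.18, adjusted p = 0.0562, limma).

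**Figure D2:**
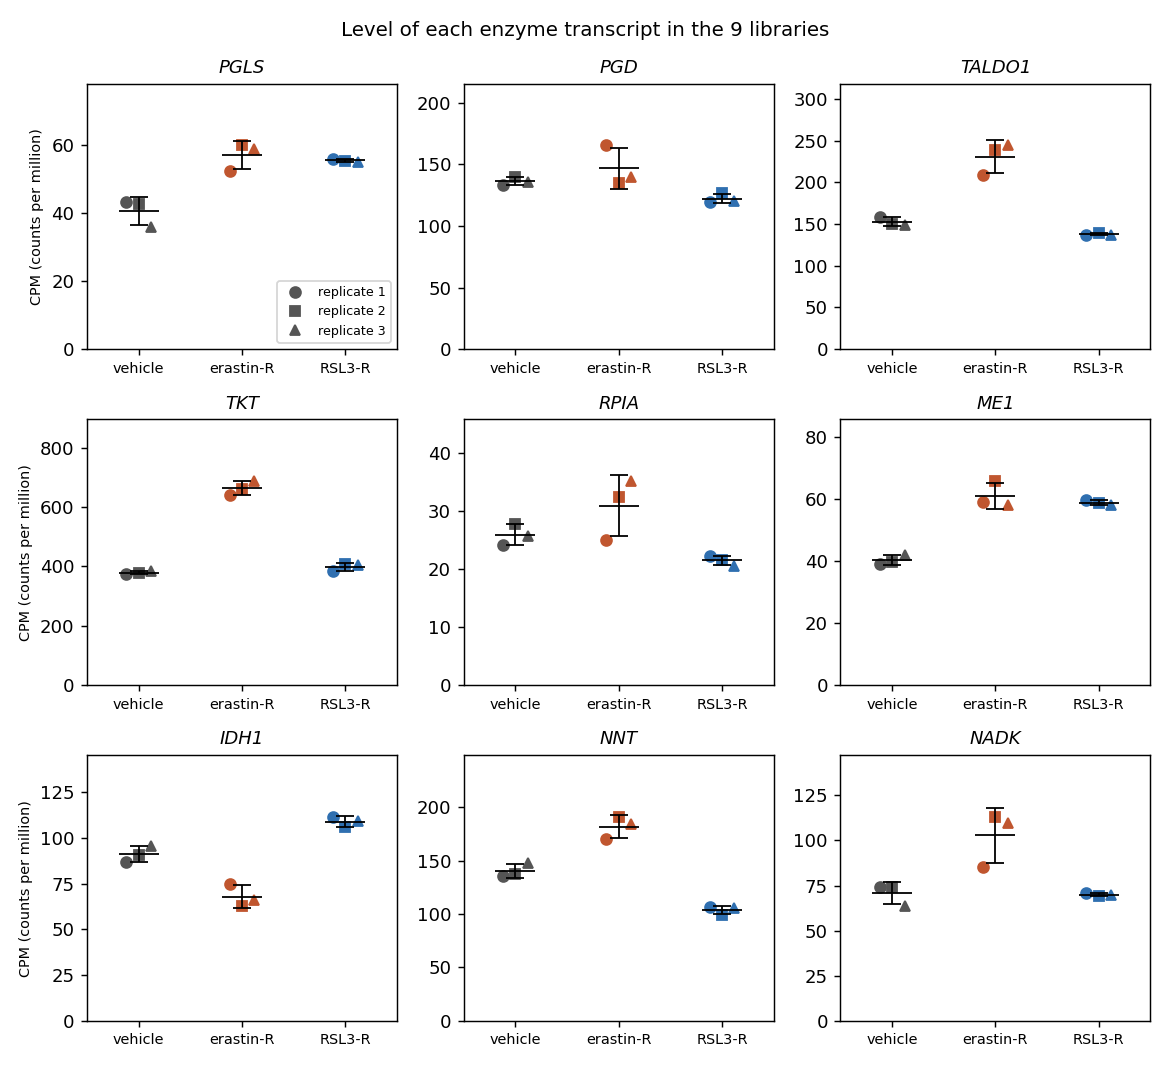
CPM (y axis) of each transcript in vehicle, erastin-R and RSL3-R cells, with 1 point per library, the marker giving the replicate number, and the mean ± SD (n = 3) in black. In TKT, TALDO1, NADK and NNT the 3 erastin-R libraries lie above the other 6, while in PGLS and ME1 both groups of survivors lie above vehicle. The share of all genes that separate in these ways was not computed.

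Of the 9 genes followed, TKT, TALDO1 and RPIA belong to the non-oxidative branch. TKT and TALDO1 rose in erastin-R cells. None of these 3 passed the test against vehicle in RSL3-R cells in the model of all 9 libraries. RPE, a gene of the same branch outside the 9, fell by 0.35 on the log2 scale in RSL3-R cells (adjusted p = 0.00282, edgeR). In erastin-R cells its log2FC was -0.18 (adjusted p = 0.0726, edgeR). TKT (ENSG00000163931; chromosome 3, 53224707 to 53256052), the transketolase that moves 2-carbon units between sugar phosphates, had 375, 377 and 384 CPM in vehicle cells. It had 641, 661 and 688 CPM in erastin-R and 384, 407 and 404 CPM in RSL3-R cells, so that each erastin-R library was far above the other 6. TKT rose 1.75-fold in erastin-R cells, a log2FC of 0.81 (SE 0.05, adjusted p = 3.94e-08, edgeR). In RSL3-R cells its log2FC was 0.07, with a 95% confidence interval of -0.04 to 0.19 (adjusted p = 0.28, edgeR). TALDO1 (ENSG00000177156; chromosome 11, 747329 to 765024), the transaldolase that moves 3-carbon units, had 159, 151 and 149 CPM in vehicle, 208, 239 and 245 CPM in erastin-R and 137, 139 and 137 CPM in RSL3-R cells. The erastin-R libraries lay above and the RSL3-R libraries below the vehicle range. The log2FC of TALDO1 was 0.60 in erastin-R cells (SE 0.07, adjusted p = 4.71e-06, edgeR), and -0.15 in RSL3-R cells (adjusted p = 0.0773, edgeR). Between RSL3-R and erastin-R cells TKT and TALDO1 differed by -0.74 and -0.75 (adjusted p = 1.59e-07 and 1.02e-06, edgeR).

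RPIA (ENSG00000153574; chromosome 2, 88691644 to 88750935), the isomerase that makes ribose 5-phosphate from ribulose 5-phosphate, had the lowest mean count of the 9 in each group, with 344 to 579 counts per library. It had 24.2, 27.8 and 25.7 CPM in vehicle, 25.1, 32.5 and 35.2 CPM in erastin-R and 22.2, 21.6 and 20.6 CPM in RSL3-R cells. Replicate 1 of erastin-R lay within the vehicle range and the other two above it. Its log2FC was 0.25 in erastin-R cells (95% confidence interval 0.01 to 0.50, adjusted p = 0.0733, edgeR), 0.38 without erastin-R replicate 1 (adjusted p = 0.000422, edgeR) and 0.15 without erastin-R replicate 3 (adjusted p = 0.307, edgeR). In RSL3-R cells it was -0.27 (95% confidence interval -0.52 to -0.02, adjusted p = 0.0673, edgeR). RPIA was lower in RSL3-R than in erastin-R cells by 0.53 on the log2 scale (SE 0.12, adjusted p = 0.00183, edgeR). The adjusted p of TALDO1 and RPIA in RSL3-R cells, like that of PGD, changed with erastin-R replicate 1, which enters through the shared estimate of the spread. Without it the values were 0.00352 and 0.00569 from edgeR, and with vehicle and RSL3-R fitted alone 0.00845 and 0.0103.

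Among the other sources of NADPH, ME1 rose in both groups, while IDH1 and NNT moved in opposite directions in the 2 groups. ME1 (ENSG00000065833; chromosome 6, 83210389 to 83431071), the cytosolic malic enzyme, had 38.9, 39.8 and 42.0 CPM in vehicle, 58.9, 65.8 and 57.9 CPM in erastin-R and 59.6, 58.7 and 57.9 CPM in RSL3-R cells. All libraries of survivors were above the vehicle range, and the 2 groups of survivors overlapped. The log2FC of ME1 was 0.60 in erastin-R cells (SE 0.07, adjusted p = 9.28e-06, edgeR) and 0.55 in RSL3-R cells (SE 0.07, adjusted p = 2.52e-05, edgeR). The difference between RSL3-R and erastin-R was -0.05, with a 95% confidence interval of -0.20 to 0.10, and that of PGLS was -0.04, with an interval of -0.22 to 0.14.

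IDH1 (ENSG00000138413; chromosome 2, 208236227 to 208266074), the NADP-dependent isocitrate dehydrogenase of cytosol and peroxisomes, had 87.0, 90.5 and 95.7 CPM in vehicle, 74.9, 62.7 and 65.8 CPM in erastin-R and 112, 106 and 109 CPM in RSL3-R cells. The 3 groups did not overlap, with erastin-R lowest and RSL3-R highest. IDH1 fell by 0.43 on the log2 scale in erastin-R cells (SE 0.07, adjusted p = 0.00024, edgeR) and rose by 0.26 in RSL3-R cells (SE 0.07, adjusted p = 0.00918, edgeR). NNT (ENSG00000112992; chromosome 5, 43602692 to 43707405), the transhydrogenase of the inner mitochondrial membrane, which makes NADPH from NADH, had 135, 137 and 147 CPM in vehicle, 170.2, 191 and 184 CPM in erastin-R and 106, 99.2 and 106 CPM in RSL3-R cells. Its groups did not overlap either, in the reverse order. NNT rose by 0.38 on the log2 scale in erastin-R cells (SE 0.06, adjusted p = 0.000195, edgeR) and fell by 0.43 in RSL3-R cells (SE 0.06, adjusted p = 8e-05, edgeR). The direct difference between RSL3-R and erastin-R cells was 0.68 for IDH1 (adjusted p = 5.3e-06, edgeR) and -0.81 for NNT (adjusted p = 3.72e-07, edgeR). Exons of the antisense gene NNT-AS1, which had up to 500 counts, cover 2.63% of the exon bases of NNT. The strand setting of the counting is not given in the sources used here, so that these reads cannot be told apart there.

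NADK (ENSG00000008130; chromosome 1, 1751232 to 1780457), the cytosolic NAD kinase, had 74.3, 74.3 and 63.9 CPM in vehicle, 85.3, 113 and 109.7 CPM in erastin-R and 70.8, 69.3 and 69.5 CPM in RSL3-R cells. The erastin-R libraries were all above the vehicle range, with replicate 1 nearest to it, and the RSL3-R libraries lay inside it. NADK rose by 0.54 on the log2 scale in erastin-R cells (SE 0.10, adjusted p = 0.000358, edgeR), and by 0.65 without erastin-R replicate 1. In RSL3-R cells its log2FC was -0.02, with a 95% confidence interval of -0.23 to 0.19 (adjusted p = 0.88, edgeR). RSL3-R and erastin-R cells differed by -0.56 (adjusted p = 0.000331, edgeR).

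Levels of different genes were compared per kilobase of exon (RPKM, here CPM divided by the exon length). That length counts all annotated exons of a gene, with 9507 bases for TKT, 3005 for TALDO1 and 2966 for PGD. The order of the genes therefore depends on the annotation, and the transcripts present were not examined. In CPM, without that division, TKT stood above TALDO1 and PGD in vehicle cells (379, 153 and 136 CPM). In vehicle cells TALDO1 (50.8 ± 1.79 RPKM, SD, n = 3), PGD (46.0 ± 1.04) and TKT (39.8 ± 0.468) stood highest and did not overlap each other. IDH1 (19.3 ± 0.927) and NNT (17.0 ± 0.782) followed, again apart. PGLS, RPIA, NADK and ME1 closed the order between 14.2 and 11.9 RPKM, and in that stretch each gene overlapped the next. In erastin-R cells TKT, at 69.8 ± 2.47 RPKM, had passed PGD, at 49.4 ± 5.64, and overlapped TALDO1, at 76.8 ± 6.56. IDH1 was then the lowest of the 9, at 14.4 ± 1.34 RPKM, in a stretch from NNT to IDH1 in which every gene overlapped the next. In RSL3-R cells TALDO1 was at 45.8 ± 0.404 RPKM, above TKT (41.9 ± 1.35) and PGD (41.2 ± 1.29), which overlapped. IDH1 came next at 23.1 ± 0.620 RPKM and RPIA last at 11.6 ± 0.442.

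**Figure D3:**
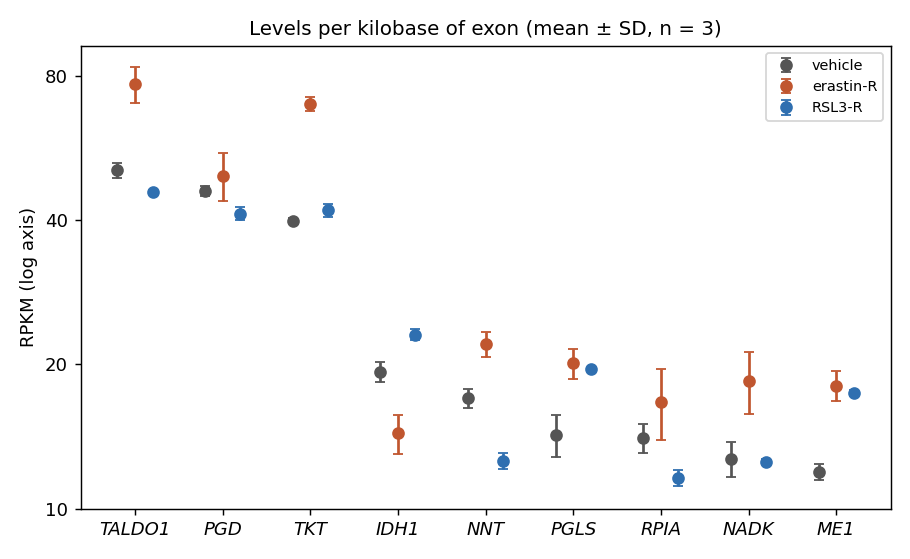
RPKM (log axis) of the 9 transcripts, ordered by their level in vehicle cells, as mean ± SD (n = 3) for vehicle, erastin-R and RSL3-R cells. TALDO1, PGD and TKT lie above 39 RPKM in all 3 groups and the other 6 transcripts below 24 RPKM. The order of the genes depends on their annotated exon length.

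The genes most like 2 of the members over the 9 libraries were sought among 12961 other protein-coding genes, by the root mean square difference of log2 CPM from the vehicle mean. Nearest to TKT, which had the largest change in erastin-R cells, were ANKS1A (0.04), GTF2IRD1 (0.05) and COQ8A (0.06). Nearest to ME1, which had the largest change in RSL3-R cells, were PAWR (0.06), XIAP (0.06) and TBC1D20 (0.07). All of these are differences in log2 units.

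Of 12 other genes of pentose and ribose metabolism, 8 passed the filter. In erastin-R cells 1 rose and 3 fell, with a median log2FC of -0.11 (adjusted p under 0.05, edgeR), against 27.1% and 26.8% of all genes. In RSL3-R cells 1 rose and 6 fell, with a median of -0.39, against 23.8% and 24.9% of all genes. PGM2, a phosphopentomutase, rose by 0.32 on the log2 scale in erastin-R cells (adjusted p = 0.000567, edgeR). SHPK, the sedoheptulose kinase, fell by 1.06 there (adjusted p = 0.000689, edgeR), from 55 to 74 counts per library in vehicle to 24 to 33 counts. PRPS1, which makes phosphoribosyl pyrophosphate from ribose 5-phosphate, fell in both groups, by 0.29 in erastin-R and by 0.62 in RSL3-R cells (adjusted p = 0.0027 and 7.12e-06, edgeR). H6PD, which runs the oxidative steps in the endoplasmic reticulum, rose by 0.48 in RSL3-R cells (adjusted p = 7.79e-05, edgeR). RPEL1, TKTL1, TKTL2 and PRPS1L1 did not pass the filter, with at most 8 counts in any library.

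Of 10 other genes listed as able to make NADPH or NADP, 5 rose and 2 fell in erastin-R cells (adjusted p under 0.05, edgeR), against 27.1% and 26.8% of all genes. In RSL3-R cells 4 rose and 3 fell, against 23.8% and 24.9%, and the medians were 0.39 and 0.01. Which cofactor each enzyme used, MTHFD2 and ME2 among them, was not measured, so that a change here is not a change in NADPH supply. MTHFD2, a mitochondrial folate dehydrogenase, rose by 0.72 in erastin-R and by 1.33 in RSL3-R cells on the log2 scale (adjusted p = 4.73e-06 and 1.36e-08, edgeR), whereas the cytosolic MTHFD1 fell by 0.57 and by 0.86 (adjusted p = 9.26e-06 and 2.46e-07, edgeR). ALDH1L2, which oxidises formyl-tetrahydrofolate in mitochondria, rose by 1.80 in RSL3-R cells (adjusted p = 0.000373, edgeR), from 11 to 26 counts per library to 48 to 61 counts. Its cytosolic relative ALDH1L1, at 22 counts or fewer per library, rose by 1.17 there (adjusted p = 0.0434, edgeR) and had 0.75 in erastin-R cells (adjusted p = 0.19, edgeR). ALDH1L1 had 16, 4 and 5 counts in vehicle and 18, 22 and 16 counts in RSL3-R libraries, so that these groups overlapped. ME3, a mitochondrial malic enzyme, fell by 0.86 in erastin-R cells (adjusted p = 7.83e-07, edgeR) and was at 0.01 in RSL3-R cells. IDH2, the mitochondrial counterpart of IDH1, moved opposite to it and like NNT: its log2FC was 0.42 after erastin and -0.68 after RSL3 (adjusted p = 0.000632 and 1.72e-05, edgeR), and -1.10 between them (adjusted p = 2.79e-07, edgeR).

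At the start of glycolysis, which shares its sugar phosphates with the pathway, 5 of 8 listed genes rose and 2 fell in erastin-R cells (adjusted p under 0.05, edgeR). Among all genes 27.1% rose and 26.8% fell there. In RSL3-R cells 4 of the listed genes fell and none rose, where 24.9% of all genes fell and 23.8% rose. The medians were 0.23 and -0.36 on the log2 scale. HK2, a hexokinase, rose by 0.67 in erastin-R and fell by 0.54 in RSL3-R cells (adjusted p = 1.41e-05 and 0.00012, edgeR). GPI, which turns glucose 6-phosphate into fructose 6-phosphate, fell by 0.37 and by 0.85 (adjusted p = 3.33e-05 and 1.63e-08, edgeR). PFKM, a phosphofructokinase, rose by 0.53 in erastin-R cells (adjusted p = 5.57e-06, edgeR) and was at 0.05 in RSL3-R cells. TIGAR, which lowers glycolysis through fructose 2,6-bisphosphate, had 3 to 19 counts per library and a log2FC of -0.99 in erastin-R cells (adjusted p = 0.0694, edgeR).

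Of 13 enzymes that use NADPH, 6 rose and 4 fell in erastin-R cells (median log2FC 0.04), where 27.1% of all genes rose and 26.8% fell. In RSL3-R cells 3 rose and 5 fell (median -0.16), where 23.8% of all genes rose and 24.9% fell, by the same test. TXNRD1, the cytosolic thioredoxin reductase, went from 526 ± 10.7 CPM (SD, n = 3) in vehicle to 1471 ± 51.2 CPM in erastin-R and 653 ± 18.2 CPM in RSL3-R cells, log2FCs of 1.48 and 0.31 (adjusted p = 2.99e-10 and 0.000231, edgeR). NQO1, a quinone reductase, rose by 1.20 in erastin-R cells (adjusted p = 1.98e-09, edgeR) and was at -0.01 in RSL3-R cells. BLVRB, a biliverdin and flavin reductase, rose by 0.97 and by 0.49 (adjusted p = 9.97e-08 and 6.79e-05, edgeR).

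A list of 8 further genes known to be induced by NRF2 (GCLC, GCLM, SRXN1, SLC7A11, OSGIN1, HMOX1, FTH1 and FTL) was set beside the members. All 8 rose in erastin-R cells by a log2FC of at least 1 (adjusted p under 0.05, edgeR), with a median of 1.51. By that criterion 1084 of the 16188 genes tested rose. In RSL3-R cells 4 rose and 1 fell at an adjusted p under 0.05, with a median of 0.24, against 23.8% and 24.9% of all genes. SLC7A11, the cystine carrier, rose in both groups, by 2.76 and 2.53 on the log2 scale (adjusted p = 6.24e-12 and 9.93e-12, edgeR). GCLM, a subunit of the first enzyme of glutathione synthesis, went from 66.1 ± 4.39 CPM (SD, n = 3) in vehicle to 168 ± 11.1 CPM in erastin-R and 50.2 ± 3.27 CPM in RSL3-R cells. Between RSL3-R and erastin-R cells all 8 were lower in RSL3-R cells (adjusted p under 0.05, edgeR), from -0.23 for SLC7A11 to -1.79 for SRXN1. Of all genes 26.9% were lower there. FTH1 and FTL have near-identical processed pseudogenes, so that their counts are uncertain.

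**Figure D4:**
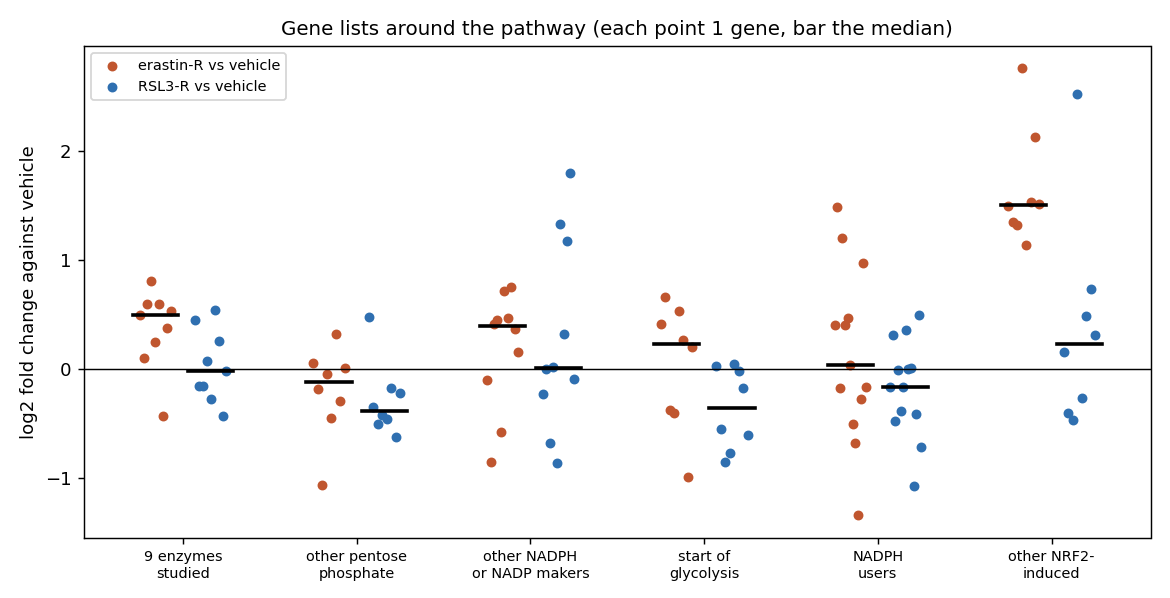
Log2FC against vehicle (y axis) of every tested gene of the 9 enzymes and of 5 lists around them (x axis), with 1 point per gene, erastin-R and RSL3-R cells apart, and a black bar at the median. The list of further NRF2-induced genes has a median of 1.51 (erastin-R) and 0.24 (RSL3-R), and the 9 enzymes 0.49 and -0.02.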

How the data were processed

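The authors deposited 1 table per library with a raw read count and an FPKM value for each gene. The submitters' notes name HISAT2 2.0.5 and featureCounts 1.5.0-p3, and the methods state uniquely mapped exonic reads. The FPKM values, normalized by the authors, served for 1 alternative filter. The genome build is not given in the sources used here: all 58735 gene identifiers are in GENCODE 29 (GRCh38), 58724 of them with the same coordinates.

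From the counts, edgeR 4.0.16 (R 4.3.3) fitted 1 quasi-likelihood model to the 9 libraries after filterByExpr and TMM scaling, with Benjamini-Hochberg adjustment over the 16188 genes tested. A standard error (SE) is the absolute log2 fold change divided by the root of its F statistic. DESeq2 1.42.0, limma 3.58.1 and other filters, scalings and samples were alternatives. The scripts were tested on simulated data. The members, lists and tests were chosen with earlier results of these data known. Named list genes are the extremes of each list against vehicle, those past a log2 fold change of 1, and RPE. An item of the list of NADPH users that meets this rule is not reported here.

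Exons of PGLS, IDH1 and NNT overlap antisense or long non-coding genes over 9.17%, 1.99% and 2.63% of their bases. PGD shares 4.16% of its words of 50 bases with the pseudogene PGDP1. Figures used Python 3.11.15 and matplotlib 3.10.9.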

Additional observations from a re-analysis of the deposited data

Results flagged for a closer look

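IDH1 and NNT had changes against vehicle that passed the threshold in opposite directions in the 2 groups of survivors. The rule for flagging them also required the direct difference to pass, so that its p values are no further support. RSL3-R cells exceeded erastin-R cells by 0.68 on the log2 scale for IDH1 (adjusted p = 5.3e-06, edgeR, 3 libraries per group), and differed from them by -0.81 for NNT (adjusted p = 3.72e-07, edgeR). Groups of 3 libraries were not tested for single outlying values.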

How the results depend on the processing

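Of the log2 fold changes of the 9 enzymes in 3 comparisons, recomputed under 18 alternatives, 461 kept their direction and side of the threshold, 12 passed it only in the alternative, 3 no longer passed it and 10 changed sign. The 3 that no longer passed were all PGD between RSL3-R and erastin-R cells, with values in the report. The count of enzymes lower in RSL3-R than in vehicle cells, 1 in the report, was 2 with no filter on low counts (12.2% of all genes lower, against 24.9% in the report), 4 when only the 2 groups compared were fitted (29.8%), 3 at an unadjusted p under 0.05 (27.8%), and 1 to 4 when a library was left out (4 without erastin-R replicate 1, at 29.2%, and 2 without replicate 3, at 24.8%). The other counts of members stayed within 1.5 times. The values that changed sign had not passed the test: NADK against vehicle in RSL3-R cells was 0.0246 with quantile normalization, 0.0066 at a mean FPKM of at least 1 and -0.0938 to 0.0213 with a library left out. Between RSL3-R and erastin-R cells, PGLS was 0.0775 and ME1 0.0568 with quantile normalization, and -0.1016 to 6e-04 and -0.0904 to 0.0047 with a library left out. The cause was not tested. With a mean FPKM of at least 1, 12798 genes were tested in place of 16188. The genes past a log2 fold change of 1 then numbered 1255, 996 and 871 in place of 2162, 1635 and 1674, and the reason was not tested. With quantile normalization the share of higher genes among those past a log2 fold change of 1 was 50.4% against 59.6% for RSL3-R against vehicle. For RSL3-R against erastin-R it was 56.1% against 66.4%.

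The replicate numbers are shared by the groups. Deviations from the group mean had a mean correlation of -0.0049 over 9 pairs with the same number and 0.0026 over 18 with different numbers. No shared deviation by number was thus seen, which does not settle whether the libraries were prepared in sets. With the replicate number as a block, 6 members were higher and 1 lower in erastin-R cells, 3 higher and 1 lower in RSL3-R cells, and 1 higher and 6 lower between them, as without the replicate block.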
